A study of Rattus norvegicus with 53 samples.

Results

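The experiment described here asked whether blocking interleukin-1 (IL-1) altered the gene expression that serum of DRlyp/lyp rats induces in blood cells. It covered 8 of the 53 arrays of the study, chosen by their labels: 4 of cells cultured with d60 DRlyp/lyp serum to which IL-1RA had been added, and 4 with d60 DRlyp/lyp serum alone. All cultures held peripheral blood mononuclear cells (PBMCs, the lymphocytes and monocytes of blood) of healthy male Brown Norway (BN) rats, given as 180 days old in the design, and ran for 6 h. The DRlyp/lyp rat is a lymphopenic line of the BB rat that develops autoimmune diabetes, and the serum came from rats aged 60 days. Groups used as context were d60 DR+/+ serum (4 arrays, from the related BB line that does not develop diabetes), autologous BN serum with added IL-1B (4), autologous BN serum (10), allogeneic BN serum (15), and serum of d40 DRlyp/lyp rats treated with IL-1RA (6) or PBS (6). The BN serum is given as from rats aged 180 days, so it differed from the d60 serum in donor age as well as strain. For the d40 rats the study design, which says that the animals were treated, was followed over sample labels that speak of added IL-1RA.

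The labels speak of serum for most groups, while the protocol speaks of 20% plasma. The amount and species of the IL-1RA in the d60 cultures are not given in the sources used here. An array measures RNA, so the added protein itself was not measured. Nothing in the labels ties the replicates to separate rats or cultures, so a p-value here speaks only of the spread between these samples, which may be technical.

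IL-1 is an early inflammatory cytokine with an alpha and a beta form, encoded by Il1a and Il1b. Both bind the receptor Il1r1, which recruits the accessory protein Il1rap and, through Myd88, Irak kinases and Traf6, releases NF-kappaB to induce chemokines, cytokines and the feedback inhibitors of NF-kappaB. IL-1RA, encoded by Il1rn, occupies the same receptor without starting the signal, and Il1r2 is a decoy receptor that binds IL-1 and does not signal.

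The promoters of 4 textbook NF-kappaB targets are shown because IL-1 is known to induce these genes. They encode the neutrophil-attracting chemokines Cxcl1 and Cxcl2, the NF-kappaB inhibitor Nfkbia and the nuclear NF-kappaB regulator Nfkbiz. Each run is the 200 bases before the RefSeq start of the gene in build GRCr8, written 5′ to 3′ on the gene's strand. Capitals mark a general form of the NF-kappaB element, searched on both strands: GGG, any 3 bases, then TTCC, or in reverse complement GGAA, any 3 bases, then CCC.
Cxcl1: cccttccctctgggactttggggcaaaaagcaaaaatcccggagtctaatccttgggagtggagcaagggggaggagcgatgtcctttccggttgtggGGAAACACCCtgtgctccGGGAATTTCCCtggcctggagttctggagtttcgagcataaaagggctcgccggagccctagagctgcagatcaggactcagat
Cxcl2: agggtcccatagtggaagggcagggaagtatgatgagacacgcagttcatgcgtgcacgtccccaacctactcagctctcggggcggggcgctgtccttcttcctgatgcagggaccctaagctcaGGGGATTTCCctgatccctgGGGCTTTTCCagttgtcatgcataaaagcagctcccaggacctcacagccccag
Nfkbia: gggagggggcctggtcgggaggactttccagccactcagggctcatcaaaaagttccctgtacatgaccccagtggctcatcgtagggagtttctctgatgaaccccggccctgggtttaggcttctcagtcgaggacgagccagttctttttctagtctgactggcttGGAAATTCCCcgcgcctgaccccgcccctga
Nfkbiz: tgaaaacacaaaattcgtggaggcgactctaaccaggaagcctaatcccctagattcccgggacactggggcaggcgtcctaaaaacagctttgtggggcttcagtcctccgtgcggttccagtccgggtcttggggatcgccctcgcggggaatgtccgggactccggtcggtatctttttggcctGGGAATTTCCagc
The windows lie at chr14:17479322-17479521 (minus strand) for Cxcl1, chr14:17467256-17467455 (minus) for Cxcl2, chr6:78597073-78597272 (minus) for Nfkbia and chr11:58251521-58251720 (plus) for Nfkbiz. Cxcl1 held 3 matches, of which the last 2 overlap, Cxcl2 held 2, and Nfkbia and Nfkbiz held 1 each. Among 33469 rat promoters of the same length, 1248 (3.73%) held the motif on either strand. The window of Il1b, searched in the same way, held 0 and is not printed. A match is a description of these letters and does not show that the factor binds there, and no match says only that the letters are not in the window.

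The 8 arrays were close in median level and actin signal, while replicate 3 of serum alone stood apart on other measures. Array medians ran from 5.36 to 5.53 on the log2 scale, and correlations between arrays ran from 0.966 to 0.992. The 3′ minus 5′ actin signal on the log2 scale, a measure that grows with RNA degradation, was 2.79, 2.59, 2.44 and 2.24 with IL-1RA, against 2.27, 2.43, 2.14 and 2.46 in serum alone, so the groups overlapped. The same measure for Gapdh was 2.46, 2.92, 3.08 and 3.16 with IL-1RA, against 2.91, 2.61, 3.72 and 3.00 in serum alone. Replicate 3 of serum alone thus had the highest Gapdh value, and it had the lowest mean correlation with the other arrays (0.976). On the first principal component of the 8 arrays, which held 39.3% of the variance, replicate 3 of both groups scored highest, at 32.2 with IL-1RA and 57.9 in serum alone. All 8 arrays lay in the larger of 2 clusters that the 53 arrays form, together with all d60 and IL-1B arrays, 12 allogeneic arrays and 4 autologous arrays (replicates 7 to 10). Comparisons with autologous serum used those 4 arrays. The labels do not say what the clusters are.

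No transcript passed the test for IL-1RA. By limma, 0 of 31042 probe sets (0%) differed between d60 DRlyp/lyp serum with IL-1RA and the same serum alone at an adjusted p under 0.05, and the smallest adjusted p was 0.986. At an unadjusted p under 0.05 there were 1493 probe sets (4.81%), of which 876 (2.82%) were higher and 617 (1.99%) lower with IL-1RA. The groups did not overlap in 853 probe sets (2.75%). Taking the probe set with the highest mean for each of 14217 genes, 625 genes (4.4%) had an unadjusted p under 0.05, 296 (2.08%) higher and 329 (2.31%) lower. The log2 difference over these genes had a median of -0.03, with a 5th percentile of -0.33 and a 95th of 0.33. It was above 0 for 6167 genes and below 0 for 8050 (56.6%). The median standard error (SE) of a gene's log2 difference was 0.175, and with 4 arrays a group the precision of every value is limited. In whole PBMCs, fewer cells of a type and less RNA per cell cannot be told apart.

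With the replicate number treated as a pair, limma again called 0 of 31042 probe sets (0%), with a smallest adjusted p of 0.229. That fit gave 3613 probe sets (11.6%) with an unadjusted p under 0.05. The labels do not say that a number marks a shared animal, plate or day.

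**Figure D1:**
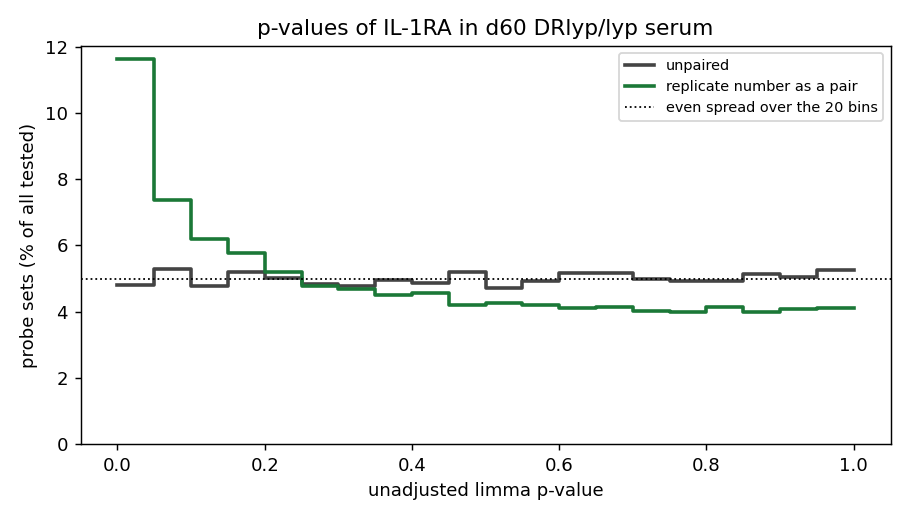
Share of the 31042 probe sets (vertical axis, percent) in each of 20 bins of the unadjusted limma p-value (horizontal axis) for IL-1RA in d60 DRlyp/lyp serum. The unpaired fit (grey) has 4.81% in the lowest bin, close to the dotted line of an even spread, and the fit with the replicate number as a pair (green) has 11.6%.

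The genes of IL-1 itself did not pass the test. Il1b had levels of 10.00, 9.85, 9.24 and 9.55 with IL-1RA, against 9.79, 9.91, 9.20 and 9.05 in serum alone. The groups overlapped over most of their range, and the log2 difference was 0.17 (SE 0.23, 95% interval -0.34 to 0.67, limma adjusted p = 0.9998). Il1a, the alpha form, was at 5.65, 5.19, 5.30 and 5.73 with IL-1RA, against 5.60, 5.55, 5.03 and 5.55 in serum alone, a log2 difference of 0.04 (interval -0.35 to 0.42). Il1rn, the gene of the endogenous antagonist, was at 4.93, 5.05, 4.80 and 4.84 with IL-1RA, against 4.95, 5.00, 4.49 and 5.31 in serum alone, a log2 difference of -0.03 (interval -0.39 to 0.33). The values with IL-1RA lay inside the range of serum alone for this gene.

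No gene of the receptor side passed. Il1r1, the signalling receptor, differed by 0.15 on the log2 scale (interval -0.09 to 0.39), its accessory protein Il1rap by -0.04 (interval -0.36 to 0.27), and both groups overlapped. The decoy receptor Il1r2 stood at 8.89, 8.32, 7.44 and 7.13 with IL-1RA, against 8.67, 8.41, 7.82 and 7.08 in serum alone. Its spread within each group was far wider than its log2 difference of -0.05 (interval -0.89 to 0.79). Casp1, the protease that matures IL-1B, differed by -0.21 (interval -0.57 to 0.15). Over the 13 measured genes of the 15 listed ligands, antagonist and receptors, 0 were called, 0 had an unadjusted p under 0.05, 6 were above 0 and 7 below, and the median log2 difference was -0.03, as over all genes.

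The signalling chain below the receptor did not pass either. Traf6, the ubiquitin ligase that passes the signal on, was at 10.03, 10.73, 10.28 and 9.73 with IL-1RA, against 9.67, 10.62, 7.47 and 9.82 in serum alone. Replicate 3 of serum alone stood apart, and the log2 difference of 0.80 had an interval of -0.26 to 1.86. The 3 other probe sets of Traf6 gave differences of 0.21, 0.55 and 0.44. Tollip, an inhibitor of the pathway, differed by 0.31 and the kinase Irak1 by 0.25 on the log2 scale, with overlapping groups. Of 15 measured adaptors and kinases of the 16 listed, 0 were called, 10 lay above 0 and 5 below, with a median of 0.08.

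The chemokine and feedback genes that IL-1 is known to induce had differences of both signs. Cxcl1 was at 5.48, 5.23, 4.94 and 5.15 with IL-1RA, against 5.01, 4.61, 4.75 and 4.56 in serum alone. Only replicate 3 with IL-1RA and replicate 1 of serum alone overlapped, and the log2 difference was 0.47 (SE 0.15, interval 0.13 to 0.80). It did not pass the test, with an unadjusted p of 0.00945 and a limma adjusted p of 0.986, and it lay in the direction of more transcript with the antagonist. Cxcl2, whose promoter is shown beside that of Cxcl1, stood at 9.21, 8.91, 8.90 and 9.11 with IL-1RA, against 8.80, 8.87, 8.55 and 8.89 in serum alone, a log2 difference of 0.26 (interval -0.11 to 0.62). Its groups did not overlap, but the lowest value with IL-1RA and the highest of serum alone nearly met.

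Feedback inhibitors of NF-kappaB differed in sign. Nfkbiz was at 9.50, 9.03, 9.68 and 9.51 with IL-1RA, against 10.30, 9.46, 10.35 and 9.70 in serum alone. It was lower with IL-1RA in 4 of 4 replicate numbers although the groups overlapped, and its log2 difference of -0.52 (interval -1.01 to -0.03) did not pass, with a limma adjusted p of 0.986. A second, dimmer probe set of Nfkbiz gave 0.10. Nfkbia was at 10.76, 10.74, 10.20 and 10.14 with IL-1RA, against 11.65, 11.36, 10.50 and 9.91 in serum alone, a log2 difference of -0.39 (interval -1.08 to 0.29). The arrays of serum alone spread widely around those with IL-1RA. Other inhibitors also had both signs, and none passed. Above 0 were the deubiquitinase Tnfaip3 at 0.17 (interval -0.32 to 0.66), its partner Tnip1 at 0.37 (interval -0.24 to 0.97) and the ribonuclease Zc3h12a at 0.08 (interval -0.26 to 0.42). Below 0 were Nfkbib at -0.09 (interval -0.60 to 0.41) and Irak3 at -0.08 (interval -0.51 to 0.34). All of these other inhibitors were added after their values were seen.

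The classical inflammatory mediators were near 0. The log2 difference was -0.14 for Il6 (interval -0.40 to 0.11), 0.01 for Tnf (interval -0.35 to 0.37) and 0.14 for Ptgs2, the inducible prostaglandin synthase (interval -0.17 to 0.45). Il6 and Ptgs2 had levels near 3, at the dim end of the array, where RMA compresses differences. Of 32 measured cytokines and chemokines of the 33 listed, 0 were called and 1 (Cxcl1) had an unadjusted p under 0.05. In this list 25 lay below 0 and 7 above, while 56.6% of all genes lay below 0. The median log2 difference was -0.10 beside -0.03 over all genes. Of 30 measured NF-kappaB subunits and targets of the 33 listed, 0 were called, 1 (Nfkbiz) had an unadjusted p under 0.05, and the median was -0.06. Relb, a subunit of the non-canonical NF-kappaB branch, had a log2 difference of 0.72 (interval -0.01 to 1.45) and Birc2, an inhibitor of apoptosis in the same branch, one of -0.37 (interval -0.74 to 0.00), and neither passed.

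**Figure D2:**
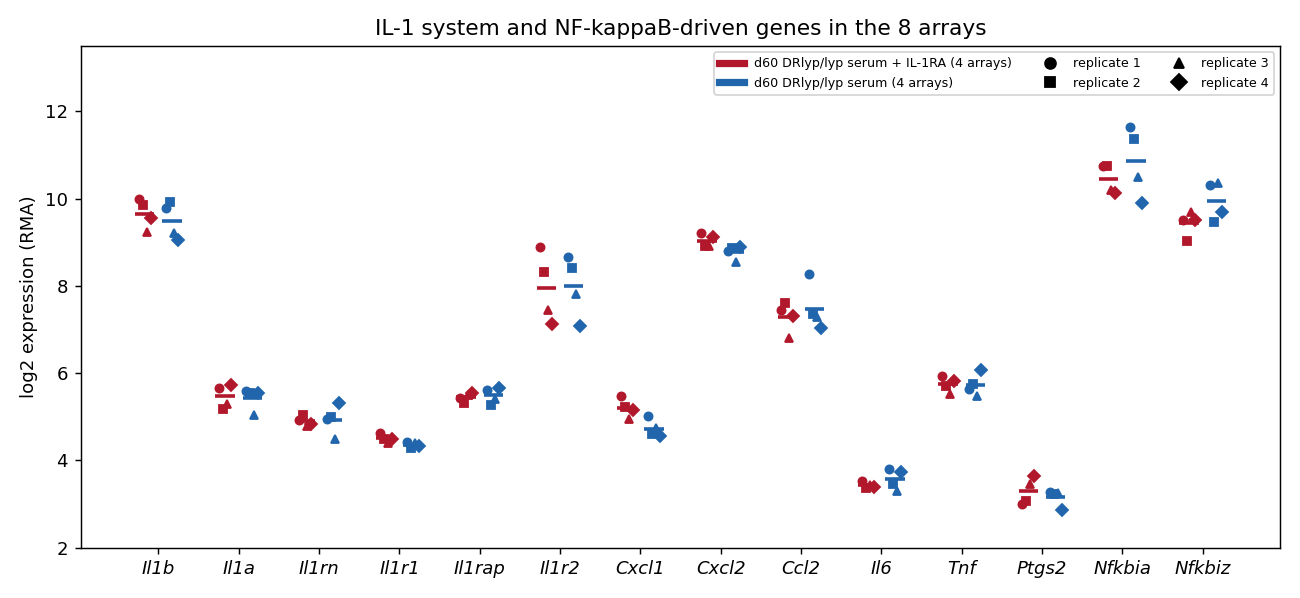
Log2 RMA level (vertical axis) of 14 genes of the IL-1 system and its targets (horizontal axis) on each of the 4 arrays of d60 DRlyp/lyp serum with IL-1RA (red, left) and of d60 DRlyp/lyp serum alone (blue, right). Bars are group means and symbols are replicate numbers. The groups overlap in every gene drawn but Cxcl2, and Cxcl1 and Nfkbiz have the smallest unadjusted p-values.

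A second question was whether IL-1RA reversed the genes that d60 DRlyp/lyp serum led with. Against autologous serum, limma called 2 of 31042 probe sets (0.00644%) for serum alone, both higher and 1 of them Pilra, an inhibitory receptor of myeloid cells, with an adjusted p of 0.0451. It called 15 (0.0483%) for serum with IL-1RA, among them Pilra, the transcription factor Fos, the receptor Tlr8, the monocyte receptor Cd14 and the matrix proteoglycan Vcan. The 2 comparisons share the autologous arrays, and each shares an array group with the IL-1RA comparison, so their values are only set side by side here. The count for serum alone depended on single arrays, being 0 without serum replicate 1, 2 or 4 or autologous replicate 7 or 10, 1 without autologous replicate 9 and 17 without autologous replicate 8.

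A list of 19 genes that led the response to this serum in an earlier analysis of the same arrays was followed. The list was not drawn from the fit used here. In this fit its members Cdkn1a and Ccl3 stood 0.49 and 0.57 above autologous serum in serum alone, and neither was called. Pilra is not in the list. It stood 1.54 above autologous serum with IL-1RA and 1.62 in serum alone, a direct log2 difference of -0.08 (interval -0.47 to 0.30). Akr1b8, an aldo-keto reductase, stood 2.82 above autologous serum with IL-1RA and 2.74 above it in serum alone on the log2 scale. Its levels were 9.34, 9.02, 7.87 and 8.64 with IL-1RA, against 9.22, 8.72, 8.26 and 8.33 in serum alone, and the direct log2 difference was 0.08 (interval -0.56 to 0.73). The groups overlapped, and an interval of that width leaves a moderate change in either direction undetectable with these arrays.

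Ccl2, the monocyte-attracting chemokine, stood 2.02 above autologous serum with IL-1RA and 2.20 above it in serum alone. Its levels were 7.45, 7.61, 6.81 and 7.32 with IL-1RA, against 8.26, 7.35, 7.28 and 7.03 in serum alone, with replicate 1 of serum alone the highest. The direct log2 difference was -0.18 (interval -0.75 to 0.38). The redox enzyme Nqo1 stood 1.81 above autologous serum with IL-1RA and 1.76 in serum alone, with a direct difference of 0.04 (interval -0.40 to 0.49). Hmox1, which degrades haem, stood 1.13 above it with IL-1RA and 1.32 in serum alone, with a direct difference of -0.19 (interval -0.66 to 0.28).

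The monocyte and matrix genes of the list were read in the same way. Cd14 stood 1.86 above autologous serum with IL-1RA and 1.74 in serum alone, a direct log2 difference of 0.12 (interval -0.32 to 0.56). Vcan stood 2.05 above it with IL-1RA and 1.74 in serum alone, a direct difference of 0.31 (interval -0.11 to 0.73). The other probe sets of Vcan gave 0.33, 0.07, 0.05 and 0.23. For Tgfbi, a matrix protein induced by TGF-beta, the direct difference was -0.02 (interval -0.53 to 0.50), for the endocytic adaptor Dab2 0.04 and for the cystine transporter Slc7a11 0.03. Tnfsf13, the B-cell cytokine APRIL, stood 0.93 above autologous serum with IL-1RA and 1.34 in serum alone, and its direct difference of -0.41 (interval -1.06 to 0.24) did not pass. Another probe set of Tnfsf13 gave -0.15.

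Clec12a, an inhibitory lectin receptor of myeloid cells, was the only one of the 19 with an unadjusted p under 0.05. It was at 6.44, 6.16, 6.40 and 6.61 with IL-1RA, against 6.75, 6.77, 7.30 and 7.24 in serum alone, and the groups did not overlap. The log2 difference was -0.61 (SE 0.19, interval -1.02 to -0.21), with an unadjusted p of 0.00592 and a limma adjusted p of 0.986, so it did not pass. Clec12a stood 0.36 above autologous serum with IL-1RA and 0.97 in serum alone. Over the 19 genes the median log2 difference was -0.09, with 7 above 0 and 12 below, beside -0.03 over all genes. Since this list was chosen on arrays of serum alone that are also in the IL-1RA comparison, a shift below 0 is no independent evidence. In the 20 genes with the largest difference of d60 DR+/+ from autologous serum, a list that uses neither of the compared groups and was chosen after the data were seen, the median was 0.10, with 14 above 0 and 6 below. Their median difference from autologous serum in d60 DR+/+ serum itself was 1.77, a value that the ranking on that same difference makes large. Limma called 0 of 31042 probe sets for that comparison. Akr1b8, Ccl2, Nqo1, Tgfbi, Cd14 and Vcan are in both lists, so the lists are not separate. Unnamed loci, with symbols that start with LOC or RGD, were left out of the 20.

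**Figure D3:**
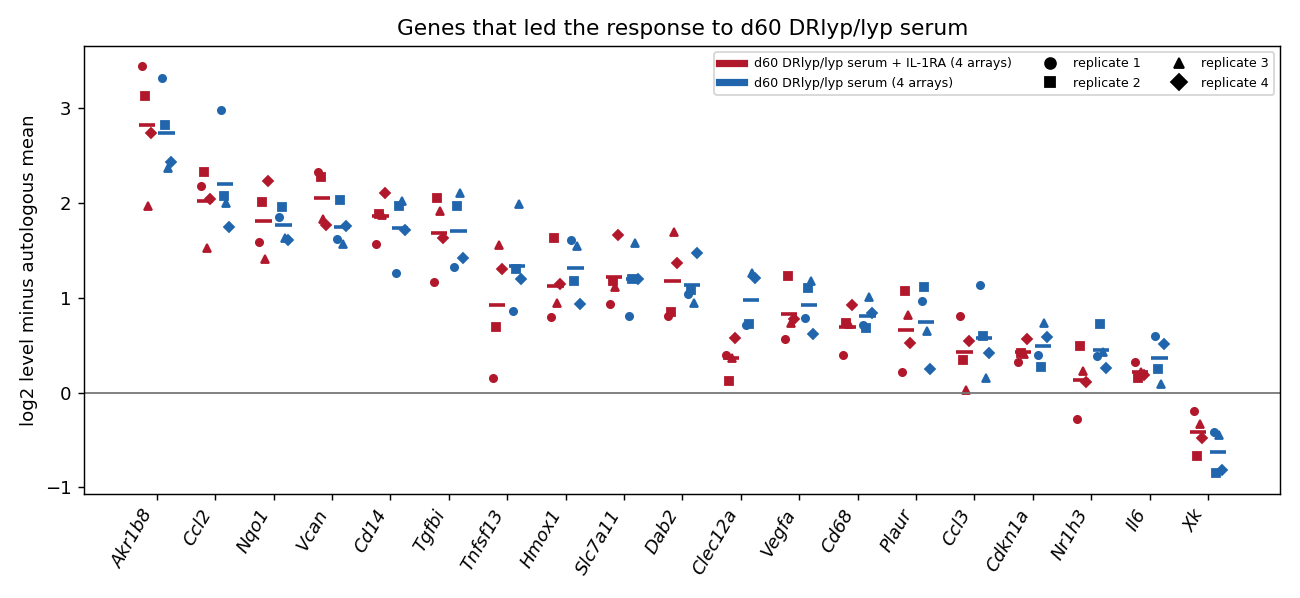
Log2 level minus the mean of 4 autologous arrays (vertical axis) for 19 genes that led the response to d60 DRlyp/lyp serum (horizontal axis), on each array with IL-1RA (red, left) and without it (blue, right). Bars are group means and symbols are replicate numbers. Akr1b8 stands highest in both groups (2.82 with IL-1RA, 2.74 in serum alone), Xk lies below 0 in both, and the red and blue points of Clec12a do not overlap.

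Autologous serum with added IL-1B was examined as a direct measure of an IL-1 response. By limma, 0 of 31042 probe sets (0%) differed from autologous serum, with a smallest adjusted p of 0.997 and 1118 (3.6%) at an unadjusted p under 0.05. A list of IL-1B-induced genes could therefore not be formed, and whether IL-1RA blocks such a list was not tested. The log2 difference with IL-1B was 0.18 for Cxcl1 (interval -0.28 to 0.63), 0.18 for Cxcl2 (interval -0.69 to 1.04), -0.11 for Il1b (interval -0.88 to 0.66), -0.24 for Nfkbia (interval -0.94 to 0.46), -0.12 for Nfkbiz (interval -0.66 to 0.43) and 0.08 for Il6 (interval -0.14 to 0.31). None of these IL-1 targets passed. Because they had no called response to IL-1B here, their values with IL-1RA cannot tell whether IL-1 was blocked.

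Since no gene passed, the genes with the smallest p are described, and their choice used the same values, so these are a description with no test. In each direction they are the 15 genes with the smallest p among those with a log2 difference of at least 0.5 and no overlap between the groups. Unnamed loci, with symbols that start with LOC or RGD, were left out of this choice. Of all genes, 173 (1.22%) were higher and 227 (1.6%) lower with IL-1RA without overlap. With unnamed loci left out, 70 and 22 of these also passed the size limit. The last gene taken above 0 was Bcl9l (p = 0.00255 by limma, adjusted p = 0.986) and the first left out was Dctn1 (p = 0.00257). The last taken below 0 was Ndufa4 (p = 0.0110) and the first left out was Mcpt1l1 (p = 0.0112).

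The genes above 0 had log2 differences from 0.60 to 1.21. Mrtfa, a coactivator of serum response factor, was at 9.54, 9.68, 9.71 and 9.56 with IL-1RA, against 8.70, 9.07, 8.84 and 8.57 in serum alone. The log2 difference was 0.83 (SE 0.17, interval 0.46 to 1.19) with an unadjusted p of 0.000263 and a limma adjusted p of 0.986. Elk4, a partner of the same factor at promoters, stood at 8.98, 8.89, 8.88 and 8.62 with IL-1RA, against 7.69, 8.39, 6.79 and 8.00 in serum alone, a log2 difference of 1.12 (interval 0.52 to 1.72). Replicate 3 of serum alone was the lowest array for Elk4, and its other probe sets gave 0.66 and 0.05.

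Numa1, which organises the mitotic spindle, was at 9.21, 9.71, 9.55 and 9.25 with IL-1RA, against 7.94, 9.06, 7.62 and 8.25 in serum alone, a log2 difference of 1.21 (interval 0.63 to 1.79). A second, dimmer probe set of Numa1 gave 0.10. Kdm6b, a histone H3 demethylase, ran from 8.87 to 9.13 with IL-1RA, against 7.83, 8.74, 8.10 and 8.04 in serum alone, a log2 difference of 0.84 (interval 0.40 to 1.28). The 4 arrays with IL-1RA were close together for Kdm6b, and replicate 2 of serum alone came nearest to them.

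Cblb, a ubiquitin ligase that restrains T-cell activation, differed by 0.65 on the log2 scale (interval 0.31 to 0.98), Stim1, the calcium sensor of the endoplasmic reticulum, by 0.87 (interval 0.41 to 1.34), and Tcf3, a transcription factor of lymphocyte development, by 0.69 (interval 0.36 to 1.03). The 2 other probe sets of Stim1 gave 0.42 and -0.18. Chromatin proteins were Sap130 of the Sin3 corepressor (0.70), Ino80e of the INO80 remodeller (0.72) and the repressor Cic (0.76). The others were Sympk, a scaffold of messenger RNA 3′ end processing (0.60), Gcn1, which activates the amino acid sensing kinase Gcn2 (0.86), Bcl9l, a coactivator of beta-catenin (0.78), Irgq (0.84) and Ccdc71 (0.78). The second probe sets of Gcn1, Ccdc71 and Ino80e gave -0.17, -0.02 and 0.10, so the differences of these genes rest on 1 probe set each.

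The genes below 0 had log2 differences from -0.81 to -0.50. Piga, which starts the synthesis of GPI membrane anchors, was at 4.52, 4.68, 4.84 and 4.38 with IL-1RA, against 5.17, 5.25, 5.60 and 5.08 in serum alone, a log2 difference of -0.67 (SE 0.15). Tceal1 was at 4.22, 3.87, 4.41 and 4.09 with IL-1RA, against 4.52, 4.67, 5.66 and 4.99 in serum alone, a log2 difference of -0.81 (interval -1.28 to -0.35). Replicate 3 was the highest array of its group for both genes.

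Further differences below 0 were those of Dbi, the acyl-CoA-binding protein (-0.58), Psmd6, a subunit of the regulatory particle of the proteasome (-0.66), Mcpt1, a mast cell protease (-0.60), and 2 mitochondrial proteins, Chchd5 (-0.71) and the respiratory chain subunit Ndufa4 (-0.52). Bbs5, a component of the ciliary BBSome, differed by -0.52, Pctp, a phosphatidylcholine carrier, by -0.50, Bet1l, a Golgi SNARE protein, by -0.58 and Ankrd37, a hypoxia-inducible gene, by -0.50. Tmem9b (-0.62), Tnnc1, the slow and cardiac troponin C (-0.59), Fam174a (-0.55) and Clec12a complete the 15. The other probe sets of Bet1l gave -0.04 and -0.21, and that of Chchd5 gave -0.26.

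These 30 genes were then read in comparisons that share no array with the 8. With IL-1B added to autologous serum, 14 of the 15 genes above 0 were again above 0, all but Tcf3 (-0.16), with a median log2 difference of 0.53, while over all genes 5764 of 14217 lay above 0 with a median of -0.04. Of the 15 genes below 0, 14 were below 0 with IL-1B as well, all but Piga (0.01), with a median of -0.21. None of the 30 was called for IL-1B, where adjusted p-values by limma were 0.997 or higher. The antagonist and the agonist, each against its own serum, thus differed in the same direction for 28 of these 30 genes. This was not particular to the 30. Of all 296 genes higher with IL-1RA at an unadjusted limma p under 0.05, 263 were above 0 with IL-1B. Of the 329 lower genes, 46 were above 0 with IL-1B.

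The agonist values were largest for Kdm6b, at 0.83 (interval 0.17 to 1.48), Bcl9l, at 0.70 (interval 0.23 to 1.17), Elk4, at 0.68 (interval -0.12 to 1.47), and Ccdc71, at 0.67 (interval 0.18 to 1.16). Across all 14217 genes the log2 differences of the IL-1RA and the IL-1B comparison had a Pearson r of 0.536 and a Spearman rho of 0.462. Genes measured on the same arrays are not independent, and each comparison takes all its genes from the same 8 arrays. Against d40 serum of PBS-treated rats, serum of IL-1RA-treated rats gave differences above 0 for 5 of the 15 genes that lay higher with IL-1RA in d60 serum (median -0.06) and for 7 of the 15 that lay lower (median -0.01). Across all genes, that comparison and the one in d60 serum had an r of 0.0444 and a rho of -0.0153.

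**Figure D4:**
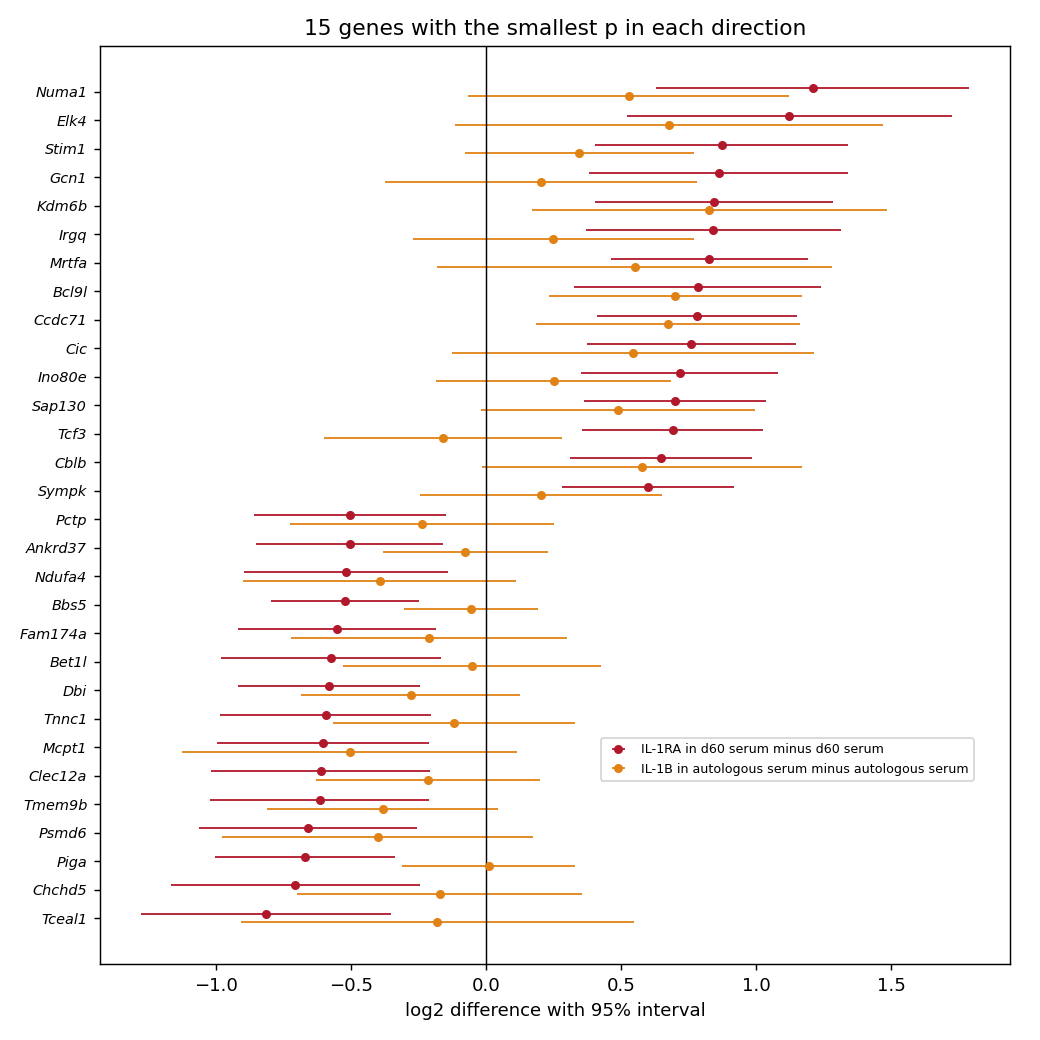
Log2 difference with its 95% interval (horizontal axis) of the 15 genes in each direction with the smallest p for IL-1RA in d60 DRlyp/lyp serum (red), and of the same genes for IL-1B in autologous serum (orange), 4 arrays in each group. The red values were used to choose the genes, and the orange ones lie on the same side of 0 for 28 of 30 genes, mostly with intervals that include 0.

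The mean level of the 15 genes above 0 was 8.50 ± 0.109 with IL-1RA, against 7.68 ± 0.234 in serum alone (SD, n = 4 each, log2 scale). Other groups of the same cluster lay between these means, with 8.33 ± 0.428 for autologous serum with IL-1B, 8.23 ± 0.884 for d60 DR+/+ serum (n = 4 each), 7.96 ± 0.190 for allogeneic serum (n = 12) and 7.89 ± 0.226 for autologous serum (n = 4). Each of these 4 groups had arrays within the range of serum alone or below it. The mean of the 15 genes below 0 was 6.36 ± 0.0558 with IL-1RA, against 6.96 ± 0.195 in serum alone. It was 6.40 ± 0.299 for autologous serum with IL-1B, 6.61 ± 0.348 for DR+/+ serum, 6.30 ± 0.204 for allogeneic serum and 6.62 ± 0.101 for autologous serum. For these genes, the mean of serum alone was the highest of the 6 groups. Both sets of 15 genes were chosen for the gap between serum with IL-1RA and serum alone. That choice alone pushes the compared groups apart and tends to leave other groups between them. The order of the groups is therefore a description and no evidence.

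**Figure D5:**
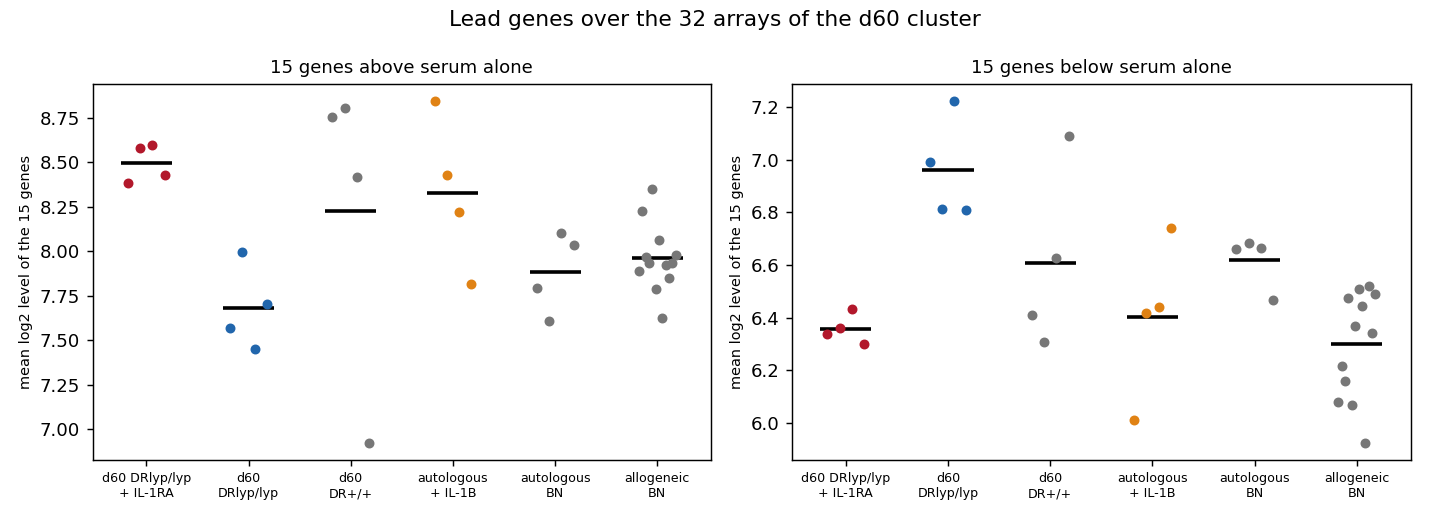
Mean log2 level (vertical axis) of the 15 genes above (left) and the 15 below (right) serum alone, on each of the 32 arrays of the cluster that holds the d60 arrays, by group (horizontal axis), with bars at the group means. Serum with IL-1RA and serum alone are separate because the genes were chosen for that, and in the left panel arrays of autologous serum with IL-1B lie in both ranges.

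The remaining gene groups were examined for a broader change in state. Of 22 measured immediate early genes of the 23 listed, 0 were called and 0 had an unadjusted p under 0.05. Above 0 lay 20 of them, beside 6167 of 14217 over all genes. The median log2 difference of these immediate early genes was 0.13, beside -0.03 over all genes. The largest differences of the list were those of Klf2, a quiescence factor of T cells, at 0.52 (interval -0.10 to 1.13), and Junb, an AP-1 subunit, at 0.40 (interval -0.07 to 0.88). Junb was at 8.38, 8.60, 8.19 and 8.09 with IL-1RA, against 8.00, 8.37, 7.35 and 7.92 in serum alone, and the groups overlapped. The other probe sets of Klf2 ranged from -0.02 to 0.63.

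Of 14 measured glucocorticoid-responsive genes of the 15 listed, 0 were called, and 3 had an unadjusted p under 0.05, 2 higher and 1 lower. Klf9, a transcription factor that glucocorticoids induce, was at 9.61, 9.87, 9.68 and 9.41 with IL-1RA, against 9.36, 9.03, 8.96 and 8.62 in serum alone, a log2 difference of 0.65 (interval 0.24 to 1.06) without overlap. Ddit4, an inhibitor of mTORC1, was at 7.86, 7.93, 8.18 and 7.59 with IL-1RA, against 6.77, 7.58, 7.07 and 7.39 in serum alone, a log2 difference of 0.68 (interval 0.23 to 1.14). Its groups nearly met without overlapping. Anxa1, an anti-inflammatory phospholipid-binding protein, lay the other way at -0.60 (interval -1.13 to -0.07), and the median of the list was 0.03. The 2 other probe sets of Klf9 gave -0.10 and 0.01.

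Stress and metabolism lists had medians between -0.07 and 0.10. For endoplasmic reticulum and amino acid stress (19 of 19 measured) the median was 0.07, with Slc7a5, an amino acid transporter, at 0.67 (interval 0.09 to 1.25). For apoptosis regulators and p53 targets (17 of 22) it was 0.10, with Bbc3, which promotes apoptosis, at 0.53 (interval 0.10 to 0.95). It was -0.07 for glycolysis and hypoxia (22 of 24), 0.03 for sterol synthesis (16 of 21), where Fdft1 had -0.35, 0.10 for liver X receptor and lipid genes (19 of 20), 0.03 for redox and heat shock genes (15 of 20) and -0.02 for the cell cycle (27 of 28), where Pcna had -0.35. Slc7a5, Bbc3, Fdft1, Pcna and, in the hypoxia list, Ankrd37 were the only members of these lists with an unadjusted p under 0.05, and none was called. Another probe set of Fdft1 gave -0.08.

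Immune pathways other than IL-1 had no called member. The median log2 difference was -0.06 for 22 measured interferon response genes of 28, -0.11 for 10 MHC class II genes of 12, where RT1-Db1 had -0.34, and -0.05 for 8 pattern recognition receptors of 22. It was 0.00 for 7 regulatory T-cell and checkpoint genes of 14, 0.05 for 9 T-helper cytokines and receptors of 18, and -0.17 for 5 of the 7 GIMAP genes, a family of lymphocyte survival GTPases that is mutated in the DRlyp/lyp line. No member of these lists was called by limma, and RT1-Db1 was the only one with an unadjusted p under 0.05. Another probe set of RT1-Db1 gave -0.11.

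Markers of the cell types in or near the PBMC fraction were measured beside these results. The median log2 difference was 0.00 for 25 measured monocyte genes of 28, -0.01 for 19 T-cell genes of 24, -0.11 for 10 B-cell genes of 16 and -0.17 for 17 natural killer and cytotoxic genes of 20, of which 15 lay below 0. In the last list Gzmb, a cytotoxic granule protease, had -0.37 (interval -0.72 to -0.02). For cells outside the fraction, the medians were 0.11 for 13 platelet genes of 17, 11 of them above 0, 0.08 for 9 erythroid genes of 15 and -0.01 for 12 neutrophil genes of 18. Over all genes, 56.6% lay below 0. Slc4a1, the anion exchanger of red cells, had a log2 difference of 0.94 (interval 0.13 to 1.76), with 9.87, 9.56, 9.73 and 9.44 with IL-1RA, against 8.12, 9.42, 7.58 and 9.71 in serum alone. S100a9, a neutrophil and monocyte protein, had -0.54 (interval -1.38 to 0.29).

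Summed as the mean log2 level of each list, all these cell types overlapped between the groups. The mean of the natural killer list ran from 7.10 to 7.56 with IL-1RA, against 7.29 to 7.74 in serum alone. The mean of the platelet list ran from 9.45 to 10.2 with IL-1RA, against 9.07 to 10.2 in serum alone, that of the erythroid list from 8.91 to 9.26 with IL-1RA against 8.68 to 9.08 in serum alone, and that of the monocyte list from 7.34 to 7.49 with IL-1RA against 7.38 to 7.50 in serum alone. Whether cell makeup had a part in any single difference was not tested. Over all 27 lists, 0 members were called.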

How the data were processed

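Expression was measured on Affymetrix rat arrays, 1 array per sample. The deposited values are log2 expression per probe set, made by the authors with RMA and Partek 6.2, per the submitters' processing notes. RMA corrects background, normalises between arrays and compresses differences of dim probe sets. Of 31099 probe sets in the table, 57 are controls. A single gene symbol was given for 20826 of the 31042 tested, several for 436 and none for 9780. Symbols of 20758 were found by gene ID in a RefSeq table, and 0 needed updating. The highest correlation between any 2 of the 53 arrays was 0.996.

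The 8 arrays were fitted alone by limma (version 3.58.1, R 4.3.3) with two-sided tests, the variance prior depending on mean level. Calls were made at an adjusted p under 0.05 after Benjamini-Hochberg adjustment over 31042 probe sets. For each gene the brightest probe set over all 53 arrays was read. Intervals are 95% intervals from the moderated fit. Context comparisons were fitted in the same way, each on its own groups, within 1 of the 2 clusters found by Ward clustering of all arrays. The fits were tried on simulated data whose noise was independent between probe sets and arrays, unlike that of the real arrays. Plots were made in matplotlib 3.10.9 (Python 3.11.15).

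The named genes were the 15 with the smallest p in each direction (log2 difference of at least 0.5, no overlap, unnamed loci left out). Up to 3 members of each list with the smallest p were added, as was a fixed set of IL-1 pathway and serum response genes. The text gives a part of the named genes. The comparison, its members and the 27 lists were chosen with earlier results of these data known. Promoters come from RefSeq (GRCr8).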

Additional observations from a re-analysis of the deposited data

Results flagged for a closer look

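In 5 of 162 groups of 4 arrays, formed by 81 genes of the report in both groups, 1 array stood apart from the other 3 by Dixon's test at the 95% level, which chance gives in about 1 of 20 groups. With IL-1RA, Sympk was at 5.47 in replicate 1, with 5.79 to 5.85 in the others. Chchd5 was at 6.10 in replicate 4 with IL-1RA, with 6.47 to 6.54 in the others. Tubb1, a platelet tubulin, was at 12.37 in replicate 3 with IL-1RA, with 12.61 to 12.63 in the others. In serum alone, Il1a was at 5.03 in replicate 3, with 5.55 to 5.60 in the others, and Ptgs2 was at 2.86 in replicate 4, with 3.24 to 3.28 in the others.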

How the results depend on the processing

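The count of 0 probe sets for IL-1RA held in all 20 other fits at an adjusted p under 0.05, and 0 list members were called in any fit. Limits of 0.01 and 0.2 were applied to the unpaired fit of the 8 arrays alone, where the count was also 0. The smallest adjusted p over the 20 other fits ran from 0.0684, which lies under 0.2, to 0.9999. The value of 0.0684 came from the replicate block with the actin difference as a covariate. The number with an unadjusted p under 0.05 ran from 519 (53 arrays in 1 fit) to 4208. It was 906 without IL-1RA replicate 2 and 2353 without serum replicate 4. The replicate block alone called 0, with 3613 at an unadjusted p under 0.05. In that fit 6 of 17 natural killer, 4 of 22 hypoxia, 3 of 10 MHC class II, 1 of 5 GIMAP and 1 of 9 T-helper genes were lower at that level. Higher were 4 of 22 immediate early genes. Of 14 glucocorticoid-responsive genes 4 were higher and 1 lower, and of 30 NF-kappaB genes 4 were higher and 3 lower. Of the 19 serum genes, chosen on these arrays, 3 were lower, as were 3 of 25 monocyte genes, with 0 higher in either list. Also lower were 2 of 10 B-cell, 2 of 12 neutrophil, 2 of 16 sterol and 1 of 27 cell cycle genes. Also higher were 3 of 19 endoplasmic reticulum stress, 1 of 15 adaptor, 1 of 13 platelet and 1 of 9 erythroid genes. Lipid genes had 2 higher and 2 lower, T-cell and apoptosis genes 2 and 1 each, and cytokines 1 and 1. The IL-1 ligand and receptor, interferon, redox, pattern recognition and regulatory T-cell lists had 0. Over all genes the share was 13.3%, which covers either direction, so a count in a single direction is not directly comparable with it. The check of the pairing gave residual correlations of 0.0706, 0.511, 0.649 and 0.306 for replicate numbers 1 to 4 (mean 0.384, against -0.124 between other numbers), and 6 of 8 arrays correlated best with their own number. The first value is under the limit of 0.1, so the numbers were not taken as pairs. Leaving out replicate number 3 of both groups, chosen after the data were seen, also gave 0. Over 127 named genes and these fits, 0 of 2516 values were called, 0 moved by over 1 SD, and 0 of the 30 genes with the smallest p changed sign, while 24 others did in at least 1 fit. The median of the 19 serum genes was -0.09 after quantile normalisation, -0.11 after median centring, -0.12 to -0.02 without each array (-0.02 without IL-1RA replicate 1), and 0.10 for the 20 DR+/+ genes. The count for IL-1B was 0 in every fit. That for d60 DRlyp/lyp serum against autologous serum, 2, was 0 with variances without a trend, 0 with only probe sets above the median level, and 0 to 17 without each array. The cause was not tested. No value exists for IL-1B-induced genes under any alternative, because 0 genes formed that list. Values near 3 are dim, and small changes of such genes were not detectable here.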
